A study of Mus musculus with 33 samples.

Results

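A set of 10 genes that are seldom used to mark type 1 conventional dendritic cells (cDC1), namely Gcsam, Dkk3, Clnk, Fzd1, Cyp8b1, Gramd2, Plce1, Cadm1, Mab21l3 and Ttc39a, were followed through 33 RNA-seq libraries of 9 sorted mouse cell populations. They are 10 of the 24054 genes counted. They were chosen by name from earlier results of these libraries, because they were near absent from type 2 conventional dendritic cells (cDC2). Their low level in cDC2 is therefore a description and carries no test here. Cadm1 met this less well, as its kidney cDC2 mean was 7.08% of its kidney cDC1 mean. All mice were C57BL/6, 10 weeks old and of the genotype Clec9a-Cre/Cre Rosa-YFP/YFP. Cre sits in both copies of the cDC gene Clec9a and a YFP reporter in both copies of Rosa26, which marks cells that express Clec9a or descend from precursors that did. No population came from mice without these alleles. From kidney, Ly6C- MHCII+ CD45+ cells were split into YFP+ CD11c+ CD64- cDC1 (the label's CD24 gate, spelled CCD24+; 6 libraries) and CD11b+ cDC2 (5). The kidney also gave CD64+ F4/80hi CD11blow cells without YFP (3) and with YFP (3), and CD64+ F4/80low CD11bhi cells without YFP (2) and with YFP (5). From spleen came YFP+ cDC1 gated on CD24 and CD205 (3), YFP+ CD11b+ cDC2 (3) and autofluorescent F4/80+ YFP- red pulp macrophages, RPM (3).

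Conventional dendritic cells take up antigen and show it to T cells. The type 1 lineage, which depends on the transcription factors Irf8 and Batf3, is known for cross-presenting antigen to CD8 T cells, and is usually recognised by the chemokine receptor Xcr1 and the receptor Clec9a. The type 2 lineage carries Sirpa and CD11b. The genes described here belong to several unrelated families: Wnt pathway proteins (Fzd1, Dkk3), signalling adaptors and effectors (Clnk, Gcsam, Plce1), an adhesion molecule (Cadm1), a bile acid enzyme (Cyp8b1), a membrane contact protein (Gramd2), and Mab21l3 and Ttc39a, whose roles in dendritic cells are not established.

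The libraries held 8729224 to 23000575 reads in genes, and 22.6% to 64.0% of reads lay outside the gene counts. Levels are given as CPM (gene reads scaled to a common library size, with TMM factors), and, where genes are compared with each other, as the authors' TPM, which also corrects for transcript length. The sorted identities were checked with markers that the gates did not use. Xcr1 was at 922 ± 169 CPM (SD, n = 6) in kidney cDC1 and 970.1 ± 26.9 CPM (SD, n = 3) in spleen cDC1, against 2.47 to 9.26 CPM on average in the other 7 populations. Sirpa was at 429.9 CPM in kidney cDC2 and 1019 CPM in spleen cDC2, and at 1.37 and 3.13 CPM in the cDC1 of the same organs. Clec9a itself was scarce, at 1.31 CPM in kidney cDC1 and 2.03 CPM in spleen cDC1 on average, in mice whose Clec9a copies both carry Cre. The label that all 10 genes are restricted to cDC1 held for 9 of them; Cadm1 was as high in macrophages, as described further on. Kidney cDC1 replicate 4 stood apart, with the lowest scaling factor of its group (0.797) and an 876 CPM sum over 14 kidney tubule genes, against 12.6 to 36.5 CPM in the other 5 libraries.

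The stretches of DNA at the starts of 4 of these genes are shown because their RNAs behaved in contrasting ways. Gcsam and Clnk had the highest correlation over the libraries among the nearest genes of the 10, whereas Cyp8b1 was higher in kidney cDC1 and Mab21l3 higher in spleen cDC1. RefSeq promoter windows (GRCm38.p6), which span 250 bases before to 50 after a start, were found for 8 of the 10 genes and not for Dkk3 and Cadm1. They were searched on both strands for TGANTCA (bound by AP-1 factors such as BATF), GAAANNGAA (a pair of IRF sites), GGAANNGAA (an ETS-IRF composite) and GGAAGT (ETS factors such as PU.1). Matches are in capitals and each window is written 5′ to 3′ on the gene's strand. The windows are chr16:45610190-45610489 (plus strand) for Gcsam, chr5:38876644-38876943 (minus) for Clnk, chr9:121916256-121916555 (minus) for Cyp8b1 and chr3:101836174-101836473 (minus) for Mab21l3.
Gcsam: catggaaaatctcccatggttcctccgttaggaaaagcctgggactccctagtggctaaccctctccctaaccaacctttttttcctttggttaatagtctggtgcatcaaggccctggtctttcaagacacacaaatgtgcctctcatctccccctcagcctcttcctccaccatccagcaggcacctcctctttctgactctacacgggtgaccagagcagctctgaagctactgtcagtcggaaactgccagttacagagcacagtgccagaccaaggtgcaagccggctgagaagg
Clnk: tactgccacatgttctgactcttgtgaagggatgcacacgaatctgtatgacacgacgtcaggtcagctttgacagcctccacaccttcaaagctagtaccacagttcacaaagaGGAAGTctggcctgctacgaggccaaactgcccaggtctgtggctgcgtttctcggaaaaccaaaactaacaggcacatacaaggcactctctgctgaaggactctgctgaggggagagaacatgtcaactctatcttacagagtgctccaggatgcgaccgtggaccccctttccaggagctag
Cyp8b1: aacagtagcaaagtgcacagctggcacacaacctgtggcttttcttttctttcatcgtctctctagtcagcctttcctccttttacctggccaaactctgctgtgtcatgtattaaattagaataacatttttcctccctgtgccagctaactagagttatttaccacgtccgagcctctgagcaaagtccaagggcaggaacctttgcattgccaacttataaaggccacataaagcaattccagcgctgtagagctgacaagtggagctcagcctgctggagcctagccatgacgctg
Mab21l3: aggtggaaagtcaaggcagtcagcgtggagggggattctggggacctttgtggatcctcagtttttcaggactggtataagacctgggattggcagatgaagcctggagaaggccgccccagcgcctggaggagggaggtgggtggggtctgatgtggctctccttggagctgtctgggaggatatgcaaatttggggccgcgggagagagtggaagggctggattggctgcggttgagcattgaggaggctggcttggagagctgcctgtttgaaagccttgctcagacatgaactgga

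Of these 4 windows, the one of Clnk held a match, GGAAGT, which began 135 bases before the start; the other 3 held none of the letters searched. Among the remaining genes, Fzd1 had an ETS match beginning 1 base after its start, Plce1 a composite match (GGAAGGGAA) beginning 17 bases after, and 1 of the 4 Gramd2 windows an IRF pair match (TTCTATTTC, read on the opposite strand) beginning 231 bases before. No AP-1 match was found in the 11 windows of the 8 genes. Over all 32851 windows in the table, 7.81% held the AP-1 letters, 8.56% the IRF pair, 8.24% the composite and 23.8% the ETS letters. Matches describe these windows only, and each window covers 1 annotated start. The Mab21l3, Ttc39a and Plce1 windows lie inside the span of the gene in GENCODE M21. So do the Gramd2 windows at chr9:59707387-59707686 and chr9:59707514-59707813, neither of which held a match. The Fzd1 window (chr5:4758167-4758466) and the matched Gramd2 window (chr9:59679583-59679882) lie wholly outside the GENCODE M21 spans of these genes. Distances are to the RefSeq start of each window.

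**Figure D1:**
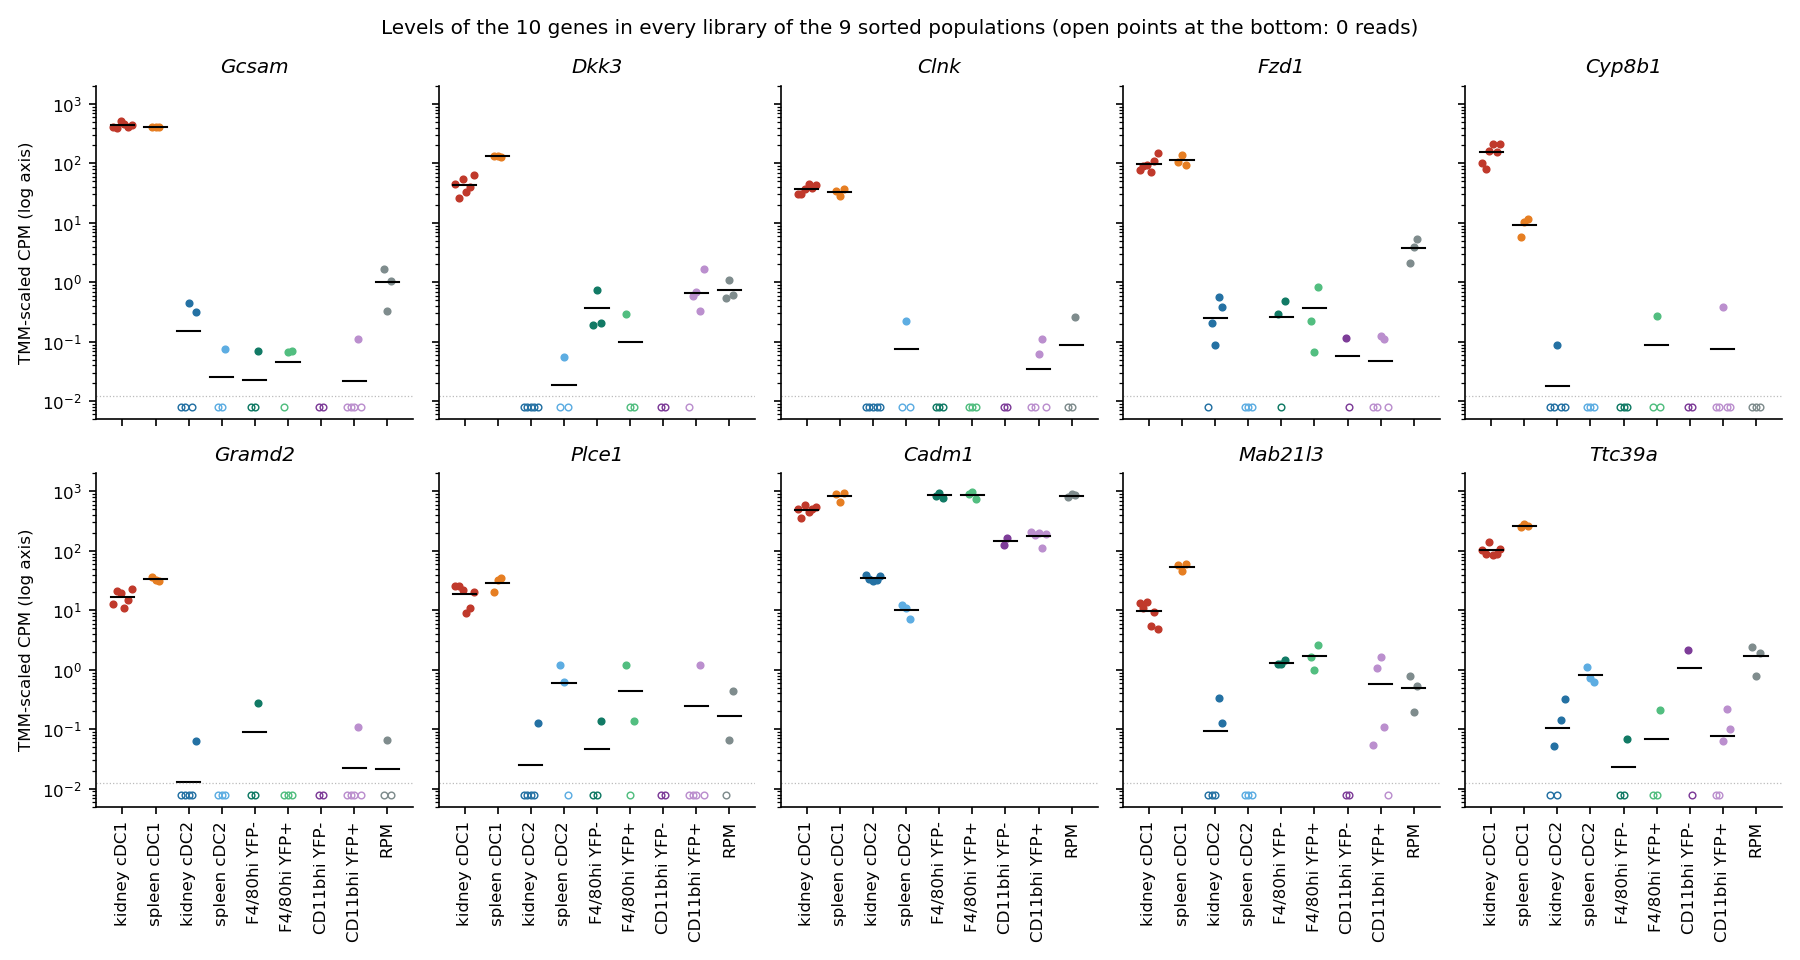
TMM-scaled CPM (log axis) of each of the 10 genes in all 33 libraries, 1 point per library, grouped by the 9 sorted populations on the horizontal axis; black bars are group means and open points below the dotted line are libraries with 0 reads. For 9 genes the kidney and spleen cDC1 libraries lie above every other library, whereas Cadm1 is also high in the F4/80hi and RPM libraries.

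The first group are signalling adaptors and effectors. Gcsam (chromosome 16, 45610380 to 45622867, plus strand), an adaptor known from germinal centre B cells, where it acts in receptor signalling and motility, was one of the most abundant of the 10. In kidney cDC1 it ranged from 400.5 CPM to 523 CPM with a median of 431 CPM, and the 3 spleen cDC1 libraries had 415, 402.4 and 402.0 CPM. These ranges overlapped, and no library outside cDC1 exceeded 1.68 CPM. Kidney cDC2 held 10 Gcsam reads, all in 2 of 5 libraries, and spleen cDC2 held 1 read, so that the kidney cDC1 mean was 2874 times the kidney cDC2 mean. Beside it, 13 B cell genes summed to 74.9 to 100.9 CPM in kidney cDC1 and 198.6 to 200.5 CPM in spleen cDC1; their part in the Gcsam level was not tested.

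Clnk (chromosome 5, 38706462 to 38876812, minus strand) encodes an adaptor of the SLP-76 family, which links kinases to phospholipase C in immune cells. It ranged from 30.8 CPM to 45.9 CPM in kidney cDC1, with a median of 37.5 CPM, and was at 34.7, 28.8 and 37.3 CPM in spleen cDC1. Both F4/80hi populations, CD11bhi YFP- cells and kidney cDC2 had no Clnk read in any library. Its total outside cDC1 was 4 reads in spleen cDC2, 3 in RPM and 2 in CD11bhi YFP+ cells. Kidney cDC1 was therefore at least 1106-fold above kidney cDC2, counting the 0 reads as a floor of 3 reads over the group.

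Plce1 (chromosome 19, 38481109 to 38785030, plus strand), a phospholipase C that Ras binds and that activates Rap1, and that is known in kidney for its part in podocytes, was the least abundant per length. It was at 2.69 ± 1.32 TPM (SD, n = 6) in kidney cDC1 and 4.65 ± 1.36 TPM (SD, n = 3) in spleen cDC1. In CPM, kidney cDC1 ranged from 8.87 to 25.7 with a median of 21.1 CPM, and spleen cDC1 had 20.4, 32.9 and 34.8 CPM, so the groups overlapped. Its kidney cDC1 values fell apart by library prefix, a part of the library name, GS or BS, that the labels leave unexplained. They were at 24.3 ± 2.13 CPM in the 3 BS libraries against 13.4 ± 6.13 CPM in the 3 GS libraries. Clnk went the other way in kidney cDC1, with 30.8 to 36.5 CPM in BS and 38.4 to 45.9 CPM in GS libraries. A list of 9 podocyte genes summed to 43.8 to 105.8 CPM in kidney cDC1, of which Ptpro made 57.6 ± 22.7 CPM, and to 17.8 to 28.3 CPM in spleen cDC1. Of these 9 genes, 2 were at 0 reads in kidney cDC1 and 4 in spleen cDC1, Nphs1, the gene of nephrin, in both; the part of podocyte RNA in Plce1 was not tested. Spleen cDC2 held 28 Plce1 reads, 2.05% of the cDC1 level, the highest cDC2 share among the 9 genes other than Cadm1.

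Of the Wnt pathway genes, Fzd1 (chromosome 5, 4753839 to 4758035, minus strand; 1 exon), a Frizzled receptor for Wnt ligands, ranged from 72.6 CPM to 147 CPM in kidney cDC1 with a median of 92.9 CPM, and was at 107, 137 and 92.7 CPM in spleen cDC1. The organs overlapped. Spleen cDC2 had no Fzd1 read and kidney cDC2 held 23. RPM carried 2.10, 3.96 and 5.36 CPM, and all 3 exceeded every other library outside cDC1.

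Dkk3 (chromosome 7, 112116017 to 112159057, minus strand) encodes a secreted protein of the Dickkopf family, whose better-known members block Wnt co-receptors. Spleen cDC1 had 135, 131 and 129 CPM, whereas kidney cDC1 ranged from 26.0 CPM to 62.8 CPM with a median of 42.2 CPM. Every spleen library lay above every kidney library. Kidney cDC2 had no Dkk3 read in 5 libraries, which put kidney cDC1 at least 1269.5-fold higher, and spleen cDC2 held 1 read. Traces were found in 4 of 5 CD11bhi YFP+ libraries (highest 1.66 CPM), in all 3 RPM libraries (highest 1.10 CPM) and in all 3 F4/80hi YFP- libraries (highest 0.731 CPM), while CD11bhi YFP- cells had none.

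Cyp8b1 (chromosome 9, 121914356 to 121916305, minus strand; 1 exon) encodes sterol 12-alpha-hydroxylase, the liver enzyme that directs bile acid synthesis to cholic acid. Kidney cDC1 ranged from 79.6 CPM to 209 CPM, with a median of 158 CPM, and spleen cDC1 had 5.85, 10.3 and 11.8 CPM. All 6 kidney libraries lay above all 3 spleen libraries. The remaining 24 libraries of the other 7 populations held 11 Cyp8b1 reads in all, found in 3 libraries. All 6 liver genes looked at (Alb, Apoa1, Ttr, Cyp7a1, Cyp2e1 and Serpina1a) had 0 reads in kidney cDC1.

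Gramd2 (chromosome 9, 59680144 to 59718874, plus strand) carries a GRAM domain; its human counterpart GRAMD2A sits where the endoplasmic reticulum meets the plasma membrane. Spleen cDC1 had 37.0, 32.6 and 31.4 CPM and kidney cDC1 ranged from 11.1 CPM to 23.2 CPM with a median of 17.1 CPM, without overlap. Spleen cDC2, F4/80hi YFP+ and CD11bhi YFP- cells had no Gramd2 read, and no other population outside cDC1 held more than 4.

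Mab21l3 (chromosome 3, 101813076 to 101848959, minus strand), a member of the Mab21 family to which the DNA sensor cGAS is related, had 58.5, 45.6 and 59.5 CPM in spleen cDC1. Kidney cDC1 ranged from 4.92 CPM to 13.8 CPM with a median of 10.2 CPM, below every spleen library. Within kidney cDC1 the 3 BS libraries had 11.1 to 13.8 CPM and the 3 GS libraries 4.92 to 9.31 CPM, without overlap. Mab21l3 was also detected in all 6 F4/80hi libraries, at up to 2.59 CPM, and spleen cDC2 and CD11bhi YFP- cells had no read.

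Ttc39a (chromosome 4, 109406623 to 109444745, plus strand) encodes a protein with tetratricopeptide repeats, which commonly bind other proteins. It had 248, 281 and 265 CPM in spleen cDC1, and ranged from 86.7 CPM to 143 CPM with a median of 96.3 CPM in kidney cDC1. The organs did not overlap. Outside cDC1 it reached 2.46 CPM in RPM, and 1 of the 2 CD11bhi YFP- libraries held 37 reads while the other held 0. Spleen cDC2 had Ttc39a in all 3 libraries, at 0.612 to 1.12 CPM.

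Per transcript length, the order of the genes differed between organs. In kidney cDC1, Cadm1 (181 ± 46.4 TPM) and Gcsam (179.6 ± 38.2 TPM) led, followed by Cyp8b1 (103 ± 29.0 TPM), Ttc39a (59.1 ± 18.7 TPM), Fzd1 (31.1 ± 10.3 TPM) and Clnk (29.0 ± 4.17 TPM; SD, n = 6 throughout). Dkk3, Gramd2, Mab21l3 and Plce1 had means of 17.6, 16.2, 3.65 and 2.69 TPM. In spleen cDC1, Cadm1 (349 ± 35.6 TPM; SD, n = 3) was highest and Cyp8b1 (7.60 ± 2.63 TPM) the lowest but for Plce1. Gcsam (190.0 ± 10.5 TPM) and Ttc39a (171 ± 20.7 TPM) came next in spleen and their ranges overlapped.

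The 9 genes other than Cadm1 are set beside 15 familiar cDC1 genes in the plot of cDC2 shares. As a description of the values that chose the members, the cDC2 mean was at most 0.960% of the cDC1 mean in kidney and at most 2.05% in spleen for these 9. Xcr1 had 0.555% in kidney and 0.500% in spleen, and Irf8 0.912% and 1.22%. Batf3, Wdfy4 and Id2, among the highest of the 15, had 19.6% to 41.5% in kidney and 29.6% to 62.7% in spleen. Gpr33 lay near the members, at 1.10% in kidney and 0.298% in spleen. So did Cd8a (0.482%) and Itgae (0.826%) in spleen, whereas in kidney they had 7.85% and 6.84%. The traces of the members in cDC2 stand beside 440 Xcr1 reads in kidney cDC2 and 222 in spleen cDC2; the part of stray cDC1 cells in these traces was not tested.

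**Figure D2:**
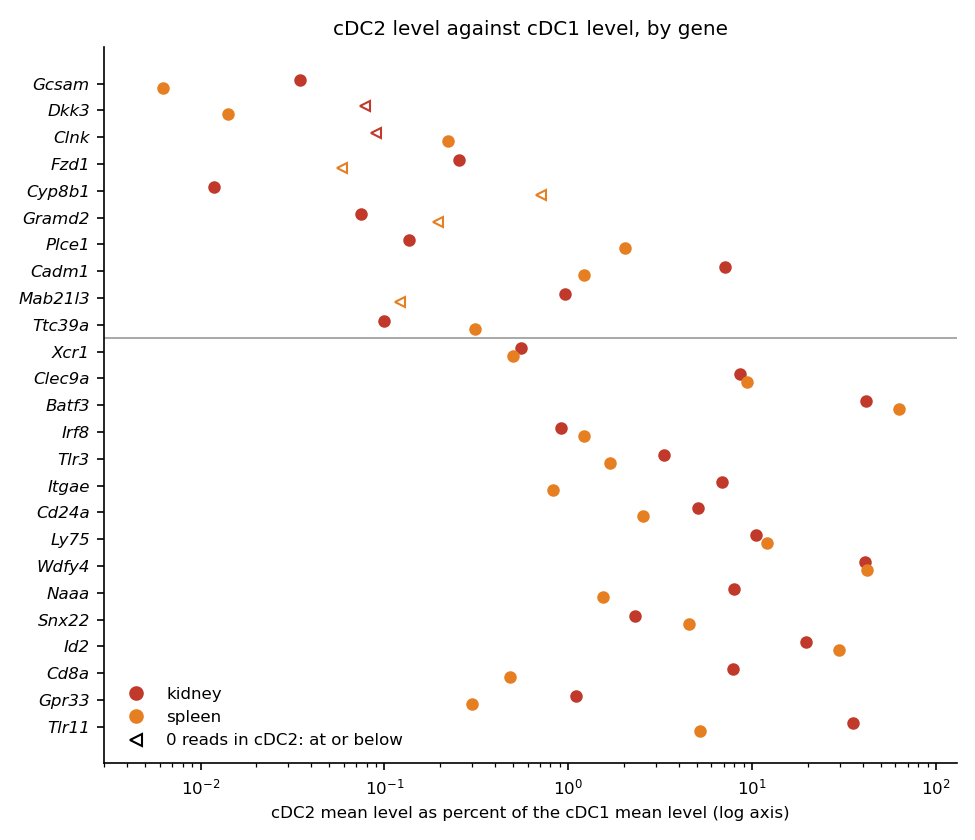
Mean CPM in cDC2 as a percentage of the mean in cDC1 (log axis) in kidney (red) and spleen (orange) for the 10 genes, above the grey line, and 15 familiar cDC1 genes below it. Open triangles mark 0 reads in cDC2 and stand at the share that a floor of 3 reads over the group allows; the 10 genes lie at or below 2.05% except Cadm1 in kidney, at 7.08%.

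The organ of origin was not used to choose the genes, so kidney cDC1 were compared with spleen cDC1. A gene was called when its Benjamini-Hochberg adjusted p (edgeR quasi-likelihood) was under 0.05 over 14258 genes tested and its log2 fold was at least 1 in size. Of the 10 genes, all of which passed the filter on low counts, 1 was called higher in kidney and 2 lower, and 6 did not overlap between organs. Of all genes tested, 6.66% were called higher and 4.45% lower in kidney (949 and 635 genes), and 21.8% did not overlap. The median log2 fold was -0.88 over the 10 genes and 0.12 over all genes tested. In bulk RNA, a smaller number of expressing cells and less RNA per cell cannot be told apart. The labels do not say which libraries came from separate animals, so p-values measure the spread between these libraries, pooled over all 33.
With TPM values and limma in place of counts, 346 genes were called higher and 1375 lower in kidney cDC1, as the median over all genes moved by -0.32 on the log2 scale; the same change gave 629 higher and 1359 lower in CD11bhi relative to F4/80hi YFP+ cells (median moved by -0.31) and 678 and 1538 in spleen cDC1 against cDC2 (by -0.20), where the counts gave 1099 and 621, and 901 and 1183. On that scale the estimates of Gcsam, Clnk and Fzd1 turned negative (-0.20, -0.07 and -0.42).

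Cyp8b1 was 20.7-fold higher in kidney cDC1 by the model with its prefix term, a log2 fold of 4.37 ± 0.52 (SE; edgeR adjusted p = 3.59e-06). The plain means were 153 ± 53.0 CPM (SD, n = 6) against 9.31 ± 3.10 CPM (SD, n = 3). Kidney cDC1 had 114 ± 40.5 CPM in the 3 BS libraries and 191 ± 29.3 CPM in the 3 GS libraries. Without the prefix term the log2 fold was 4.03 (edgeR adjusted p = 9.75e-06). Cyp8b1 was higher in 6 of 6 kidney libraries. Within the GS libraries alone, where both organs have 3 libraries, the log2 fold was 4.33 (edgeR adjusted p = 2.77e-05). BS holds no spleen library. Without kidney cDC1 replicate 4, whose tubule gene sum was high, the log2 fold was 4.28 (edgeR adjusted p = 2.93e-05). In the F4/80hi libraries the 14 tubule genes summed to 305 to 1331 CPM. Cyp8b1 was at 0 reads in 5 of 6 of these libraries and at 4 reads in the other. The part of tubule RNA in the Cyp8b1 level was not tested.

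**Figure D3:**
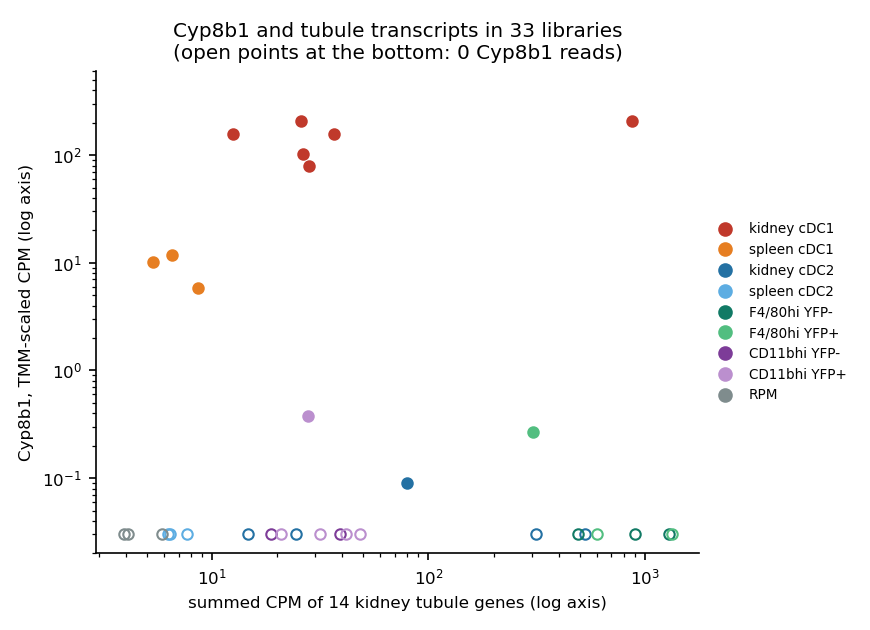
Cyp8b1 (TMM-scaled CPM, log axis) against the summed CPM of 14 kidney tubule genes (log axis) in each of the 33 libraries, coloured by population; open points at the bottom had 0 Cyp8b1 reads. The 6 kidney cDC1 libraries sit between 79.6 and 209 CPM at tubule sums from 12.6 to 876 CPM, and F4/80hi libraries with sums of 305 to 1331 CPM sit at or near 0.

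Mab21l3 and Ttc39a were called lower in kidney cDC1. Mab21l3 was at 9.66 ± 3.86 CPM (SD, n = 6) against 54.5 ± 7.75 CPM (SD, n = 3), a log2 fold of -2.67 ± 0.90 (SE; edgeR adjusted p = 0.0352). Ttc39a was at 103 ± 21.4 CPM against 264 ± 16.4 CPM, a log2 fold of -1.39 ± 0.48 (SE; edgeR adjusted p = 0.0369). Both calls ended when any of 6 of the 9 libraries was left out (kidney cDC1 replicate 4, 5 or 6, or spleen cDC1 replicate 1, 2 or 3); without kidney cDC1 replicate 4 the log2 folds were -2.43 and -1.33 (edgeR adjusted p = 0.142 and 0.116). Within the GS libraries both were called, with log2 folds of -3.08 and -1.51 (edgeR adjusted p = 0.000202 and 0.00424).

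Dkk3, Cadm1 and Gramd2 had lower values in kidney cDC1 than in spleen cDC1 without overlap, and were not called. For Dkk3, with 43.4 ± 13.7 CPM against 132 ± 3.12 CPM, the log2 fold was -1.55 ± 0.57 (SE; edgeR adjusted p = 0.0534), and within the GS libraries it was called at -1.58 (edgeR adjusted p = 0.00963). Cadm1 had 491 ± 83.2 CPM against 833 ± 139 CPM, and its log2 fold of -0.77 ± 0.19 (SE; edgeR adjusted p = 0.00485) was under the size asked for. Gramd2 had 17.1 ± 4.92 CPM against 33.7 ± 2.95 CPM, with a log2 fold of -0.99 ± 0.58 (SE; edgeR adjusted p = 0.237). In a fit of the cDC1 libraries of both organs alone, Dkk3, Gramd2 and Plce1 were also called lower in kidney, for 6 called genes in all.

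Gcsam, Clnk, Fzd1 and Plce1 overlapped between organs and were not called. The 95% interval of the log2 fold ran from -0.49 to 0.89 for Gcsam, from -0.76 to 1.45 for Clnk, from -0.84 to 1.03 for Fzd1 and from -3.10 to 1.12 for Plce1. The estimates were 0.20, 0.34, 0.10 and -0.99 in the same order. The Fzd1 estimate was positive although its kidney mean (99.1 ± 26.8 CPM) was below its spleen mean (112 ± 22.6 CPM), and it kept that sign in 12 of 19 alternatives. The interval of Gcsam stayed within 1 on the log2 scale, and that of Plce1 did not.

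**Figure D4:**
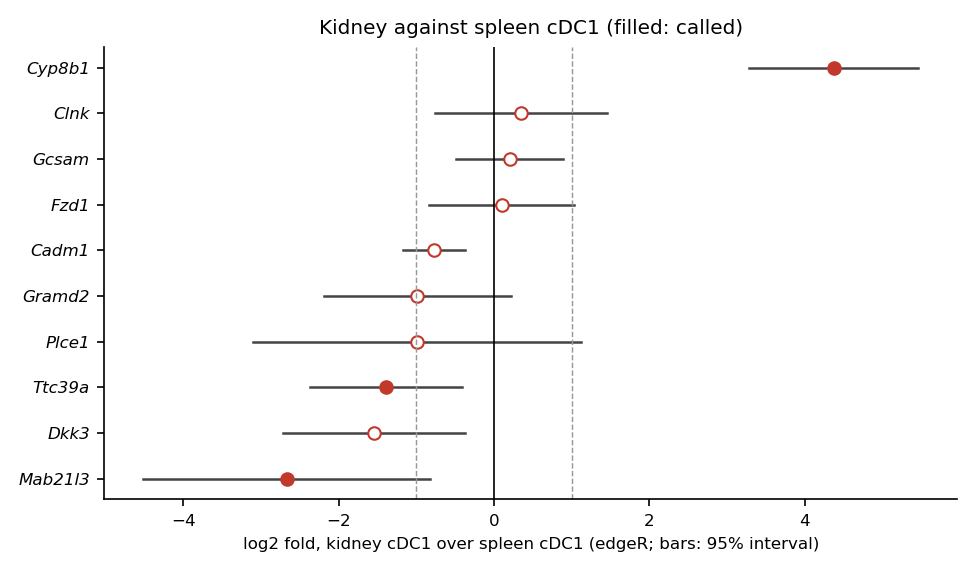
Log2 fold of kidney cDC1 over spleen cDC1 for the 10 genes (points) with 95% intervals (bars) from the edgeR model; filled points were called and dashed lines mark a log2 fold of 1 in either direction. Cyp8b1 lies at 4.37 and Mab21l3 at -2.67, and the intervals of Clnk, Gcsam, Fzd1, Gramd2 and Plce1 include 0.

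Cadm1 (chromosome 9, 47530173 to 47857637, plus strand) departed from the label. It encodes a nectin-like adhesion molecule, known on cDC1 as a partner of Crtam on activated T cells. It was at 858 ± 73.8 CPM in F4/80hi YFP- cells, 871 ± 107 CPM in F4/80hi YFP+ cells and 852 ± 53.6 CPM in RPM (SD, n = 3 each), and the 3 populations and spleen cDC1 overlapped. Kidney cDC1 lay below all 4 of them without overlap. CD11bhi YFP+ cells had 177 ± 38.9 CPM (SD, n = 5) and the CD11bhi YFP- libraries 126 and 164 CPM. The lowest levels were in kidney cDC2 (34.8 ± 3.71 CPM; SD, n = 5) and spleen cDC2 (12.5, 10.8 and 7.19 CPM), which did not overlap either.

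Between the CD64+ kidney populations, which the choice of genes did not use, Cadm1 was the only one of the 10 called when YFP+ cells of the CD11bhi gate were set against those of the F4/80hi gate, with 0 higher and 1 lower. Of all genes tested, 7.71% were called higher and 4.36% lower. Cadm1 was 4.98-fold lower in CD11bhi YFP+ cells, a log2 fold of -2.32 ± 0.24 (SE; edgeR adjusted p = 5.84e-08), and lower in 5 of 5 libraries. CD11bhi libraries are all BS and F4/80hi libraries all GS, and the prefix term of the model comes from kidney cDC1 and cDC2 alone; without that term the log2 fold was -2.30 (edgeR adjusted p = 1.63e-10). The other 9 genes were at 1.74 CPM or less on average in both populations, and the median log2 fold was -0.70 over the 10 genes and 0.06 over all genes. With the filter on low counts set on these 2 groups alone, Cadm1 and Mab21l3 passed it. The rest of the 10 passed only in the fit of all 33 libraries. The counts and median over the 10 are therefore a description. DESeq2 called Dkk3 as well, higher in CD11bhi YFP+ cells (56 reads against 4), at a log2 fold of 2.93. In the main edgeR fit its log2 fold was 2.88 and it was not called (edgeR adjusted p = 0.0857). With limma on TPM it was 0.15 (limma adjusted p = 0.759). Dkk3 passed the filter only in the fit of all 33 libraries, so the DESeq2 call is a description.

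Between macrophages of the 2 organs, F4/80hi YFP- kidney cells were compared with RPM. Of the 10 genes, 0 were called higher and 3 lower in kidney, against 11.1% higher and 9.02% lower among all genes tested. The groups did not overlap for 4 of the 10 and for 48% of all genes tested. The median log2 fold was -1.18 over the 10 genes and 0.03 over all. With the filter on low counts set on these 2 groups alone, Fzd1, Ttc39a, Cadm1 and Mab21l3 passed it, and Fzd1 and Ttc39a were called. The rest of the 10, Gcsam among them, passed only in the fit of all 33 libraries. The counts and median over the 10 are therefore a description. All 3 calls rest on traces in RPM. Fzd1 had 157 reads in RPM (3.81 ± 1.63 CPM) and 10 in F4/80hi YFP- cells (0.258 ± 0.243 CPM), a log2 fold of -3.86 ± 0.71 (SE; edgeR adjusted p = 0.00014). Ttc39a had 75 RPM reads and 1 in F4/80hi YFP- cells (edgeR adjusted p = 0.000407). Gcsam had 45 and 1. Its call is a description too, because it passed the filter only in the fit of all 33 libraries. The mean RPM levels of Gcsam and Ttc39a were 1.02 and 1.73 CPM. These were 40.7 and 68.8 times the single read over the pooled depth of the F4/80hi YFP- libraries. The 95% exact intervals for the single read were 7.31 to 1608 and 12.4 to 2718.

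Other cDC1 genes are given beside these traces. Xcr1 was lower on average in RPM (3.04 ± 1.23 CPM) than in F4/80hi YFP- cells (6.32 ± 2.51 CPM), and Clnk had 3 reads in RPM. In RPM replicates 1, 2 and 3, Xcr1 was at 4.21, 1.75 and 3.16 CPM. In the same order, Gcsam was at 1.68, 0.325 and 1.05 CPM and Ttc39a at 2.46, 0.779 and 1.93 CPM. Fzd1 was at 2.10, 3.96 and 5.36 CPM. Genes of migratory dendritic cells summed to 615, 93.3 and 116 CPM. The sum of 15 cDC1 markers was 3211 to 3464 CPM in RPM and 1132 to 1220 CPM in F4/80hi YFP- cells. Of these markers, 0 of 15 were at 0 reads in RPM and 1 of 15 in F4/80hi YFP- cells. The sum does not measure cDC1 cells alone, as it was 1127 to 1769 CPM in kidney cDC2. There Id2 was at 545.7 CPM, Wdfy4 at 351.2 CPM and Naaa at 261.3 CPM. The 13 B cell genes summed to 213 to 328 CPM in RPM and 270.2 to 306 CPM in F4/80hi YFP- cells, with 0 of 13 at 0 reads in either. The part of stray dendritic cells or B cells in the RPM reads was not tested. Cadm1 did not differ detectably between these macrophages, at a log2 fold of 0.01 with a 95% interval from -0.41 to 0.43, and Mab21l3 had higher values in kidney without overlap (1.32 ± 0.105 CPM against 0.501 ± 0.294 CPM) and was not called (edgeR adjusted p = 0.31).

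The paralogues and pathway partners of the 10 genes, in 9 lists that held none of the 10, were examined in cDC1 against cDC2. Of 133 genes tested, 11 were called in both kidney and spleen, 30 in 1 organ and 92 in neither. Among all genes tested, 5.48% were called higher and 10.2% lower in kidney cDC1, and 6.32% higher and 8.3% lower in spleen cDC1. All 11 shared calls had the same direction in both organs, as had 24 of the 30 genes called in 1 organ and 65 of the 92 called in neither. The share of all genes called in both organs was not computed, so the 11 and their direction have no background here.

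In the Wnt receptor and antagonist list, 20 of 29 genes were tested; in kidney cDC1, 2 were higher and 2 lower, and in spleen 0 were called in either direction. No other Frizzled gene was called in cDC1 against cDC2 in either organ. With the replicate block by sort code, 1 gene of this list was higher and 2 lower in spleen cDC1: Fzd7 (log2 fold 1.60; edgeR adjusted p = 0.00119), Fzd4 (-4.01; edgeR adjusted p = 0.00336) and Dkk2 (-5.41; edgeR adjusted p = 0.00744), named after their values were seen. Kremen2, a receptor for Dickkopf proteins, was at 5.50 ± 2.37 CPM in kidney cDC1 and 0.546 ± 0.853 CPM in kidney cDC2 (log2 fold 3.45 ± 1.01; edgeR adjusted p = 0.0101). Its paralogue Kremen1 went the other way, at 3.68 CPM against 11.98 CPM (log2 fold -1.70; edgeR adjusted p = 4.03e-06). Ryk, a Wnt co-receptor, had 68 reads against 5 and the secreted Wnt binder Sfrp1 37 against 1131, and both overlapped between groups.

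Among 19 genes of Wnt signal transduction tested, 1 was higher and 1 lower in kidney cDC1, and 0 higher and 3 lower in spleen cDC1 (0 and 5 with the replicate block). Wls, which carries Wnt proteins to the cell surface, fell by 4.13 on the log2 scale in kidney cDC1 (5.67 ± 4.78 CPM against 93.9 ± 11.6 CPM; edgeR adjusted p = 3.58e-11) and by 4.93 in spleen cDC1 (0.429 ± 0.345 CPM against 13.2 ± 2.61 CPM; edgeR adjusted p = 8.15e-08). Tcf7l2, a nuclear effector of Wnt signals, was higher in kidney cDC1, at 27.7 ± 5.90 CPM against 6.51 ± 1.66 CPM (log2 fold 2.11 ± 0.26; edgeR adjusted p = 1.43e-07). Between organs, Wls was higher in kidney than in spleen cDC1 (log2 fold 3.90; edgeR adjusted p = 7.99e-06), and in the receptor list Kremen1 was lower (log2 fold -1.62; edgeR adjusted p = 0.000394). Fzd4, Sostdc1 and Lef1 were called higher in kidney from 0 to 2 reads in spleen cDC1. The ratio was 31.0 for Fzd4 (95% interval 8.57 to 256) and at least 11.5-fold for Lef1, and of the 369 Sostdc1 reads of kidney cDC1, 319 lay in replicate 4, the library with the tubule gene sum of 876 CPM, 22 in replicate 1, 28 in replicate 2 and 0 in the other 3.

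For the partners of the adaptor Clnk, more were called lower than higher in cDC1, and most were not called. Of 22 genes of the SLP-76 list tested, 1 was higher and 4 lower in kidney cDC1, and 0 higher and 7 lower in spleen cDC1. The kinase Syk had 64.3 ± 13.7 CPM against 245 ± 64.6 CPM in kidney (log2 fold -1.96 ± 0.15; edgeR adjusted p = 1.64e-11) and 99.1 ± 10.1 CPM against 334 ± 25.2 CPM in spleen (log2 fold -1.75 ± 0.20; edgeR adjusted p = 1.15e-07). The adaptor Blnk (log2 fold -4.43; edgeR adjusted p = 8.97e-16) and the kinase Fgr (log2 fold -4.77; edgeR adjusted p = 3.17e-13) were lower in kidney cDC1, as was the kinase Tec (log2 fold -1.34; edgeR adjusted p = 0.0204), whereas Grap2, an adaptor that binds SLP-76, was higher (52.5 ± 9.28 CPM against 26.9 ± 7.48 CPM; log2 fold 1.01; edgeR adjusted p = 2.72e-05). In kidney against spleen cDC1, 4 of the 22 were higher and 4 lower, including Fgr at a log2 fold of -3.29 (edgeR adjusted p = 6.42e-08) and Grap2 at 1.78 (edgeR adjusted p = 1.15e-06). Skap1 had 112 reads against 1 in spleen, a ratio of 64.1 with a 95% interval from 11.5 to 2531.

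Among the other phospholipases C, 12 of 14 were tested, with 1 higher and 2 lower in kidney cDC1 and 1 higher and 1 lower in spleen cDC1. Plcb4, which G proteins activate, was higher in both, at 27.0 ± 10.5 CPM against 4.23 ± 2.49 CPM in kidney (log2 fold 2.56 ± 0.48; edgeR adjusted p = 0.000109) and 32.0 ± 0.875 CPM against 2.91 ± 1.02 CPM in spleen (log2 fold 3.46 ± 0.65; edgeR adjusted p = 0.00017). In kidney, Plcl1 and Plcd1 were lower, at log2 folds of -3.43 and -2.66. Of 20 Ras and Rap genes and their exchange factors, 0 were higher and 4 lower in kidney cDC1, and 1 higher and 5 lower in spleen cDC1. Rasgrp1, which loads Ras with GTP, had log2 folds of -3.11 in kidney (edgeR adjusted p = 1.66e-09) and -5.84 in spleen (edgeR adjusted p = 3.98e-11). Of the Rap exchange factors, Rapgef4 had 4 reads in kidney cDC1 and 193 in kidney cDC2, Rapgef3 had 0 and 48 (at least 17.9-fold lower), and Rapgef2 had a log2 fold of -1.02 (edgeR adjusted p = 0.0197). No gene of either list was called between kidney and spleen cDC1, where Plce1 was not called either.

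For Cadm1, 11 of 12 nectin relatives and ligands were tested. In kidney cDC1, 0 were higher and 3 lower, and in spleen 1 was higher and 1 lower. Cadm3, another nectin-like molecule, had no read in 6 kidney cDC1 libraries against 7.80 ± 2.59 CPM in kidney cDC2, at least 248-fold lower in cDC1, and 2 reads in spleen cDC1 against 13.2 ± 2.97 CPM in spleen cDC2, a ratio of 295 with a 95% interval from 81.7 to 2437. Pvr, the poliovirus receptor, was at 10.1 ± 3.23 CPM in kidney cDC1 against 55.2 ± 12.4 CPM in kidney cDC2 (log2 fold -2.44 ± 0.29; edgeR adjusted p = 8.75e-08). Crtam, the Cadm1 partner, had 0 reads in kidney cDC1 and 47 in kidney cDC2, at least 16.2-fold lower. Between organs, 1 relative was called higher and 1 lower in kidney cDC1. Pvr was lower (log2 fold -1.16; edgeR adjusted p = 0.0179), and Cd226, a receptor for Pvr, was higher, at 32.3 ± 10.0 CPM against 2.74 ± 0.527 CPM (log2 fold 3.14 ± 0.58; edgeR adjusted p = 0.000266).

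Bile acid genes around Cyp8b1 were few in these cells: 11 of 17 were tested, 1 was higher and 1 lower in kidney cDC1, and 1 higher and 0 lower in spleen cDC1 (1 and 1 with the replicate block). Hsd3b7, the enzyme that follows the first hydroxylation of cholesterol, was higher in both, at 146 ± 32.1 CPM against 69.6 ± 8.94 CPM in kidney (log2 fold 1.09 ± 0.14; edgeR adjusted p = 4.5e-07) and 133 ± 11.7 CPM against 22.4 ± 2.13 CPM in spleen (log2 fold 2.57 ± 0.20; edgeR adjusted p = 4.09e-11). Cyp7b1 was lower in kidney cDC1, with 2 reads against 98 (ratio 47.1; 95% interval 13.1 to 389). Between organs, Cyp39a1 (53 reads against 7) was called higher in kidney cDC1, at a log2 fold of 2.69 (edgeR adjusted p = 0.0477), and Cyp7b1 (2 reads against 10) lower.

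Around Gramd2, 16 genes of the GRAM and contact site list were tested, with 1 higher and 2 lower in kidney cDC1 and 2 higher and 1 lower in spleen cDC1. Esyt3, an extended synaptotagmin that tethers the endoplasmic reticulum to the plasma membrane, was higher in cDC1 of both organs: 10.7 ± 4.59 CPM against 0.0775 ± 0.120 CPM in kidney (log2 fold 6.81 ± 0.85; edgeR adjusted p = 2.18e-07) and 14.5 ± 2.998 CPM against 0.597 ± 0.231 CPM in spleen (log2 fold 4.59 ± 0.94; edgeR adjusted p = 0.000494). Gramd1a, which moves cholesterol at such contacts, was lower in both (log2 folds -1.35 and -1.11), and Gramd4 was lower in kidney (-1.31). Mtmr1 was the one gene of this list called between kidney and spleen cDC1, at a log2 fold of -1.43 (edgeR adjusted p = 0.000666). Of 4 Mab21 and Ttc39 paralogues tested, Ttc39b was lower in kidney cDC1 than in kidney cDC2 (log2 fold -1.16; edgeR adjusted p = 0.00018) and than in spleen cDC1 (log2 fold -1.03; edgeR adjusted p = 0.00885). Ttc39c, named after its values were seen, was higher in spleen cDC1 than in spleen cDC2 (7.51 ± 1.70 CPM against 0.511 ± 0.354 CPM; log2 fold 3.88; edgeR adjusted p = 8.35e-06).

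**Figure D5:**
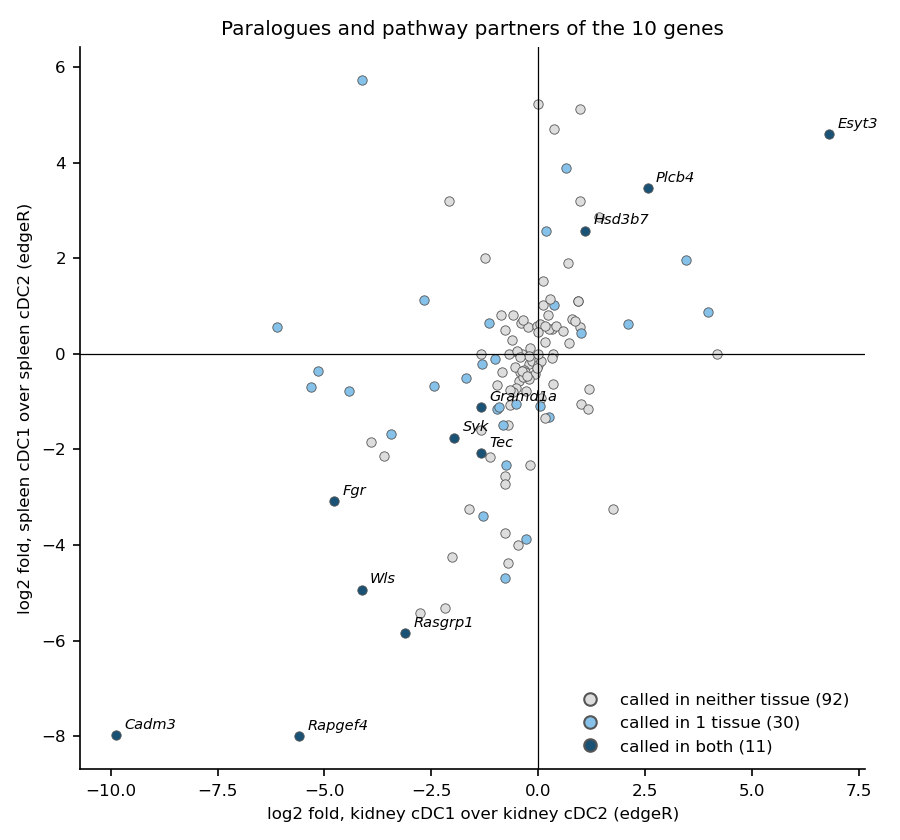
Log2 fold of cDC1 over cDC2 in kidney (horizontal) and spleen (vertical) for 133 paralogues and pathway partners of the 10 genes, coloured by whether they were called in neither organ (92), in 1 (30) or in both (11, named). Esyt3, Plcb4 and Hsd3b7 lie in the upper right and the 8 other named genes in the lower left.

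The genes with the most similar profiles were found by Pearson's r of log2(CPM + 1) over the 33 libraries among 8196 genes with at least 10 CPM in either cDC1 group. These r values describe shared differences between populations, since the libraries share populations and sort codes. The nearest gene to Gcsam was Clnk (r = 0.996), and that of Dkk3 was Gramd2 (r = 0.986). For Gcsam, Dkk3, Fzd1, Gramd2 and Ttc39a, all 3 nearest genes were other members. Xcr1 was among the 3 nearest to Clnk (r = 0.984) and Plce1 (r = 0.968). The members were chosen for a shared pattern, near absence from cDC2 (less marked for Cadm1 in kidney), in these same libraries. High r between members therefore follows in part from that choice and is a description.

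Cyp8b1, Mab21l3 and Cadm1 had no other member among their 3 nearest genes. Cyp8b1 was nearest to Naalad2 (r = 0.967), Cxx1b (r = 0.962) and Olfr433 (r = 0.957), which were likewise higher on average in kidney than in spleen cDC1; Cxx1b was at 133 ± 56.3 CPM against 17.8 ± 2.22 CPM. Mab21l3 was nearest to Cd207 (r = 0.956), the gene of langerin, a lectin of some dendritic cells, then to Clec4b2 (r = 0.946) and Trim35 (r = 0.932). Cd207 had 16.6 ± 7.90 CPM in kidney cDC1 and 95.5 ± 12.2 CPM in spleen cDC1, and 1.58 and 3.47 CPM on average in F4/80hi YFP- and YFP+ cells, where Mab21l3 was also detected. Cadm1 was nearest to Rcbtb2 (r = 0.944), Enpp4 (r = 0.944) and Arap1 (r = 0.929), and each of these had its lowest mean in spleen cDC2.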

How the data were processed

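RNA was isolated with PicoPure and libraries were made with SMARTseq v4 and MicroPlex v2, per the labels' protocols. Reads were aligned with STAR to mm10 and quantified with RSEM, per the submitters' processing notes, which give no roles or settings. The authors deposited whole-number read counts per gene (STAR), estimated counts and TPM values (RSEM), and a joint TPM table whose values for these genes equalled those of the single libraries. The counting did not use strand, so overlapping and antisense reads cannot be told apart.

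The unstranded counts of 24054 genes were analysed with edgeR 4.0.16 in R 4.3.3: filterByExpr (minimum count 10, total 15), TMM scaling and a quasi-likelihood fit of all 33 libraries with the 9 groups and the library prefix as terms. Log2 folds and their Benjamini-Hochberg adjusted p-values came from that fit and its script was tested on simulated data. Alternatives were DESeq2 1.42.0, limma 3.58.1 on log2(TPM + 1), RLE factors, no filter, estimated counts rounded to whole numbers, no prefix term, the compared groups alone, the GS libraries alone, a replicate block and each library left out. Exact intervals and floors (3 reads over a group) cover counting error only, of the smaller count; each such ratio divides the mean CPM of the higher group by the pooled reads per depth of the lower.

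The members and gene lists were chosen with earlier results of these data known. The named relatives are, per list, up to 4 called genes with the largest log2 fold in kidney cDC1 against cDC2 and up to 3 in kidney against spleen cDC1. Libraries that share a sort code were treated as possible pairs. Their deviations from group means correlated at 0.177, 0.102 and 0.254 in spleen cDC1 and cDC2. Only the replicate block took the codes as pairs. Unless an alternative is named, printed p-values come from the fit of all 33 libraries, which ignores this pairing. In spleen cDC1 against cDC2, Wls had edgeR adjusted p = 8.15e-08 without the block and 1.98e-06 with it. Esyt3 had edgeR adjusted p = 0.000494 without it and 0.000342 with it.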

Additional observations from a re-analysis of the deposited data

Results flagged for a closer look

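Of 28 groups of 4 to 10 libraries examined, 8 held a library set apart from the others. In 7 of these the library had 1 to 11 reads beside libraries at 0, which any lone read sets apart, so the usual chance rate of about 1 in 20 groups does not apply to them. In CD11bhi YFP+ cells, replicate 4 held the only reads of Gcsam (0.111 CPM), Gramd2 (0.111 CPM) and Plce1 (1.22 CPM), and it had the lowest Cadm1 (109.9 CPM, against 181 CPM in the next library). That library had the fewest gene reads (8729224), and 64.0% of its reads lay outside the gene counts. The part of these 2 traits in the values was not tested. Cyp8b1 was seen in CD11bhi YFP+ replicate 3 alone (0.378 CPM). In kidney cDC2, Cyp8b1 was seen in replicate 3 alone (0.0899 CPM), and Gramd2 (0.0639 CPM) and Plce1 (0.128 CPM) in replicate 5 alone.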

How the results depend on the processing

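The 10 genes gave 30 log2 folds, of which 7 were called. Recomputed under alternatives, the called folds stayed called in 99 of 116 cases and lost the call in 17, those not called gained a call in 19 of 360, and 0 calls changed direction. Cyp8b1 was called higher in kidney than in spleen cDC1 in all 19 alternatives (log2 fold 3.72 to 4.53); Mab21l3 was called in 12 and Ttc39a in 11, always with the same sign. In that comparison 6 of the 10 genes were called by limma on TPM and 6 with only the cDC1 libraries. Without sort code SR17_017, which removes kidney cDC1 replicate 4 among others, 1 gene of the 10 and 831 of all genes were called. Leaving out 1 library gave 1 to 3 of the 10 and 998 to 1905 of all genes, 998 without kidney cDC1 replicate 4. Between YFP+ cells of the CD11bhi and F4/80hi gates, 2 of the 10 were called by DESeq2 (Dkk3, Cadm1), 2 by limma on TPM (Cadm1, Mab21l3), 3 without the prefix term (Fzd1, Dkk3, Cadm1), and 1 to 2 with 1 library left out. Dkk3 and Fzd1 did not pass the low-count filter set on those gates alone, so their calls there are a description. In F4/80hi YFP- cells against RPM, 1 was called by limma on TPM (Fzd1) and 2 with only these groups (Fzd1, Ttc39a). With the replicate block by sort code in the GS libraries, 4 of the 10 genes and 1899 of all genes were called between kidney and spleen cDC1, Dkk3 being added (edgeR adjusted p = 0.00315), and 2533 of all genes (2084 without it) in spleen cDC1 against cDC2, where 24 of 25 calls of relatives were kept, 8 were gained and 1 (Hras) was lost at a log2 fold of 0.9989; residual correlations of same-code libraries were 0.152, 0.0609 and 0.177 for kidney and spleen cDC1. Genes with under 50 reads in a group, such as Gcsam in RPM, are limited by depth. The causes of these changes were not tested.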
